A study of Mus musculus with 6 samples.

Results

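The genes described here are Manf, Hspa5 and 8 further genes of protein folding in the endoplasmic reticulum (Hsp90b1, Calr, Canx, Sdf2l1, Creld2, Dnajb11, Hyou1 and Dnajc3), taken by name from a table of 23494 genes. All 10 had a row, and all 10 averaged 1 TPM or more and entered the test, with 12865 genes in all. TPM is a share of the library corrected for transcript length. The series measured RNA labelled as heart tissue from wild type female C57BL/6 mice that carried a flank tumour of B16F10 cells, a transplantable mouse melanoma line. In the rMANF group, mice received 2 μg/kg of recombinant MANF into the peritoneum every day once tumours averaged about 60 mm3, and in the vehicle group they received PBS. The sources used here state no age of the mice. Libraries of 3 of 8 mice per group were analysed, called biological replicates in the labels and read here as separate mice. The labels name the columns of the vehicle libraries IgG and give no reason.

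MANF is a small protein of the endoplasmic reticulum lumen that is also secreted, and it binds Hspa5 (BiP), the Hsp70 chaperone of that compartment. When unfolded proteins accumulate there, the sensors Atf6, Ern1 and Eif2ak3 start the unfolded protein response, which induces chaperone genes through promoter elements read by ATF6 and XBP1. The genes here cover Hspa5 itself, the J-domain partners Dnajb11 and Dnajc3 and the nucleotide exchange factor Hyou1. They also cover the Hsp90-type chaperone Hsp90b1 and the lectin chaperones Calr and Canx. The endogenous Manf transcript is distinct from the injected protein, which carries no RNA.

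The values went against the heart label, since the libraries held little RNA of heart muscle cells. The 11 heart muscle markers, all with rows, summed to 8.59 to 12.1 TPM in rMANF libraries and 8.26 to 68.8 TPM in vehicle libraries, and 5 of the 11 stayed under 1 TPM in every library. Nppa reached at most 0.541 TPM, Actc1 at most 0.905 TPM and Pln at most 0.0432 TPM. Myl2 was listed at 0 in 4 of the 6 libraries, while Tnnt2 measured 4.86 to 11.5 TPM. In contrast, Vim, an intermediate filament gene of mesenchymal cells, measured 2969 to 4246 TPM, and Ube2c, a gene of dividing cells, 426 to 518 TPM. Mki67, also of dividing cells, was lower at 14.1 to 22.3 TPM. Melanocyte markers, of which 3 of 7 had rows, summed to 7.44 to 10.2 TPM in rMANF libraries and 7.96 to 12.6 TPM in vehicle libraries. Of those 3, 2 stayed under 1 TPM in every library. Which tissue gave the RNA was not tested. Skeletal muscle markers summed to 7.13 to 19.7 TPM in rMANF libraries, against 111, 1235 and 27.8 TPM in vehicle replicates 1, 2 and 3. Between 18830 and 19298 genes were above 0 TPM in a library. TPM keeps no read number, so depth is unknown. In such bulk samples fewer cells of a type and less RNA per cell cannot be told apart.

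Most of these genes carry a recognised regulatory sequence in their promoters. The sequences are shown because 5 of the 6 genes with the element called ERSE were highest in the same library, vehicle replicate 1. Of all tested genes, 33.0% were highest there. Dnajb11, which lacks an exact ERSE, and Manf, which had no window to search, were highest there as well. Of the 10 genes, those highest there also have the lowest transcript GC content, as given below. Whether the element has a part in this pattern was not tested. The endoplasmic reticulum stress element ERSE was searched as CCAAT and CCACG with 9 bases of any kind between them, ERSE-II as ATTGG and CCACG with 1 base of any kind between them, and the unfolded protein response element UPRE as TGACGTGG, each on both strands, in RefSeq windows (GRCm38.p6) of 250 bases before to 50 bases after a gene start. Windows were found for 8 of the 10 genes, all except Manf and Hyou1. An exact ERSE lay in 6 of the 8 windows, those of Hspa5, Hsp90b1, Calr, Canx, Dnajc3 and Creld2. Over all 32851 windows, 0.119% held one. Hsp90b1 had a pair of them. ERSE-II was found in the window of Dnajb11 and in 0.0365% of all windows. UPRE was found in 0 of the 8 and in 0.676% of all windows. The window of Sdf2l1 had no exact match to any of the 3. ERSE and ERSE-II share the letters CCACG, but none of the matches overlapped another. The matched sites are given in the direction of the motif, with its fixed letters in capitals:
Hspa5 (chr2:34772025-34772043): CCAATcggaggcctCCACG
Hsp90b1, distal (chr10:86705638-86705656): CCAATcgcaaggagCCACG
Hsp90b1, proximal (chr10:86705533-86705551): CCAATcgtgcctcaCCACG
Calr (chr8:84847075-84847093): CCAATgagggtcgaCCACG
Canx (chr11:50325800-50325818): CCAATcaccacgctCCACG
Dnajc3 (chr14:118937827-118937845): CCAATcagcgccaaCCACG
Creld2 (chr15:88819520-88819538): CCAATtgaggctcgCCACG
Dnajb11, ERSE-II (chr16:22857852-22857862): ATTGGcCCACG

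The 250 bases upstream of the gene start are printed 5′ to 3′ in the direction of the gene for Hspa5 and Hsp90b1, 2 genes that were highest in the same library, and for Creld2, which has the element but varied least. Capitals mark the fixed letters of ERSE, which reads CGTGG and then ATTGG where the element lies on the other strand.
Hspa5 (chr2:34771840-34772089, plus strand): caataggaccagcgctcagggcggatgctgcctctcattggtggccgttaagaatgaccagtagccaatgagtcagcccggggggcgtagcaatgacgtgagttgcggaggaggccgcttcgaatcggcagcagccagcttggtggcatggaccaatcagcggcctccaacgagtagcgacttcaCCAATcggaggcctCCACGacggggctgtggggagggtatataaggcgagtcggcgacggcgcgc
Hsp90b1 (chr10:86705445-86705694, minus strand): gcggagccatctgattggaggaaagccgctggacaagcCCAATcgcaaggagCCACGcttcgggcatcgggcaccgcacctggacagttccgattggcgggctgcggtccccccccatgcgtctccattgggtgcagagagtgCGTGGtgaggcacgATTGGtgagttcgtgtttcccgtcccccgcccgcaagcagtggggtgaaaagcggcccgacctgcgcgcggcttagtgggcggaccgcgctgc
Creld2 (chr15:88819396-88819645, plus strand): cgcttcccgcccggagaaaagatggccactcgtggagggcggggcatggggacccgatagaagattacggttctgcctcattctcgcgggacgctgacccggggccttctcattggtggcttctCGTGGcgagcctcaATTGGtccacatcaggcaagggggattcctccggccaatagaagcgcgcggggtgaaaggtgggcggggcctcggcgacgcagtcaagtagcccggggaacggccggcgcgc

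Positions are counted from the RefSeq start. The element of Hspa5 ran from 65 to 47 bases upstream of the start, and that of Creld2 from 126 to 108 bases upstream on the other strand. The GENCODE M21 annotation begins Hspa5 at chr2:34771970, which places its element inside that gene model. Those of Hsp90b1 began 212 and 107 bases upstream, the second on the other strand. The ERSE-II of Dnajb11 lay just inside the transcribed part, from base 8 to base 18. A match describes letters in a window and does not show that a factor bound there.

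**Figure D1:**
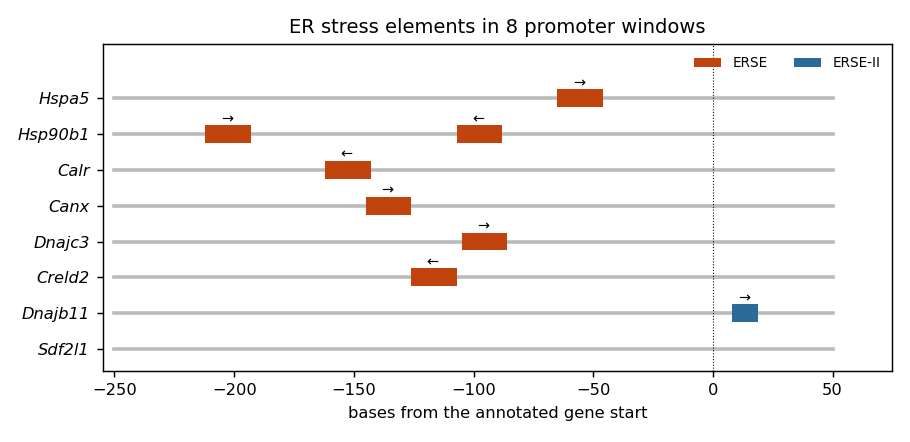
Positions of exact ERSE (orange) and ERSE-II (blue) matches in the promoter windows of 8 chaperone genes, in bases from the RefSeq gene start. Arrows give the direction of the motif. The ERSE matches lie between 212 and 47 bases upstream of the start in 6 genes, and the window of Sdf2l1 holds none.

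The 10 transcripts fell into an abundant and a moderate tier, and the order was almost the same in every library. Hsp90b1, the Hsp90-type chaperone also called GRP94, was highest at 533 to 929 TPM. Hspa5 followed at 414 to 574 TPM, Calr (calreticulin, the soluble lectin chaperone) at 359 to 465 TPM and Canx (calnexin, its membrane-bound relative) at 220 to 361 TPM. Manf came next at 75.4 to 106 TPM, a mean that exceeded that of 87.8% of tested genes. Each of these 5 was above the next gene in all 6 libraries, and so was Dnajb11, at 56.4 to 68.6 TPM, over Creld2. Creld2 (55.9 to 60.9 TPM) and Hyou1 (48.3 to 65.2 TPM) did not keep an order. Hyou1 was above Creld2 in all 3 rMANF libraries and below it in all 3 vehicle libraries. Sdf2l1 (29.7 to 39.2 TPM) was above Dnajc3 (23.6 to 33.3 TPM) in 4 of 6 libraries. Together the 10 genes took 1956, 2130 and 2064 TPM in rMANF replicates 1, 2 and 3, and 2685, 1843 and 1985 TPM in vehicle replicates 1, 2 and 3. Hsp90b1, Hspa5 and Calr made up 70.9 to 73.3% of that sum in every library. Cdnf, the paralogue of Manf, was at 0.490 to 1.16 TPM and too low to test.

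**Figure D2:**
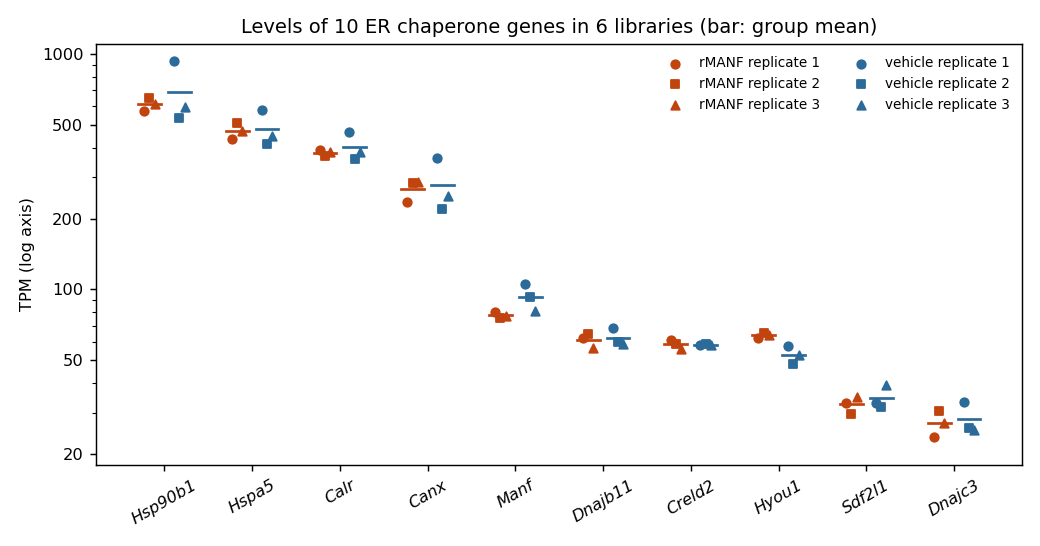
TPM on a log axis for the 10 chaperone genes in the 3 rMANF libraries (orange) and the 3 vehicle libraries (blue), with marker shapes for replicate numbers and bars for group means. Vehicle replicate 1 (blue circles) lies above all other libraries for 7 genes, among them Hsp90b1 at 929 TPM, and Hyou1 and Manf are the only 2 genes whose groups do not overlap.

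None of the 10 genes passed the test between rMANF and vehicle libraries (limma, Benjamini-Hochberg adjusted p under 0.05 over all tested genes), and neither did any other tested gene (0%). At an unadjusted p under 0.05 there were 2 of the 10, against 20.5% of all tested genes. They were Hyou1, higher with rMANF as were 13.9% of tested genes, and Manf, lower as were 6.63%. The groups did not overlap for the same 2 genes, against 28% of all tested genes, which is no larger a share. Of the 10 log2 differences, 8 were below 0 and 2 above, with a median of −0.04, where the median of all tested genes was 0.04. The design of 3 against 3 leaves wide intervals, and the 95% interval of each gene is given because a missed threshold does not show that groups are alike.

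Manf, the gene of the injected protein, measured 80.4, 75.4 and 77.2 TPM in the rMANF libraries, against 106, 92.6 and 81.0 TPM in the vehicle libraries. The groups did not overlap, but the highest rMANF library and the lowest vehicle library were 80.4 and 81.0 TPM. Groups in which rMANF was lower without overlap made up 9.02% of tested genes. The log2 difference was −0.25 ± 0.11 (SE, n = 3 each), with a 95% interval of −0.50 to −0.00421 (limma, adjusted p = 0.238). As a ratio this is 0.841-fold, with an interval of 0.709 to 0.997. Without vehicle replicate 1 the difference was −0.16, and without vehicle replicates 1 and 2, the libraries with the most skeletal muscle RNA, it was −0.06 (adjusted p = 0.798; the range over 18 alternatives was 0.130 to 0.798). In that last fit the lone vehicle library is assumed to vary like the rMANF libraries. Manf lies on chromosome 9 (106838312 to 106891979, GRCm38, minus strand, GENCODE M21). The kit does not mark strand, and 4.14% of its annotated exonic bases are shared with Dcaf1 and 4.71% with 4930524O07Rik, both on the opposite strand. Those genes measured 10.7 to 15.3 and 0.215 to 1.89 TPM.

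Hspa5 measured 434, 508 and 470 TPM in the rMANF libraries, against 574, 414 and 446 TPM in the vehicle libraries. All 3 rMANF values lay within the range of the vehicle values. The log2 difference was −0.01 ± 0.13 (SE, n = 3 each), with a 95% interval of −0.31 to 0.29 (limma, adjusted p = 0.972). A change of Hspa5 by more than 1.22-fold upward or below 0.806-fold lies outside that interval. Its sign turned to 0.13 without vehicle replicate 1.

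A ratio of transcripts within a library does not depend on how that library was scaled. Manf amounted to 18.5, 14.8 and 16.4% of Hspa5 in the rMANF libraries, against 18.4, 22.3 and 18.2% in the vehicle libraries. The groups overlapped through rMANF replicate 1. The log2 ratio differed by −0.24, which an exact two-sided permutation test over 20 assignments did not separate (p = 0.3, where 0.1 is the smallest this design allows).

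Hyou1 (GRP170), an exchange factor that releases ADP from Hspa5, was the only one of the 10 higher with rMANF without overlap between groups. It measured 62.4, 65.2 and 63.9 TPM in the rMANF libraries, against 57.6, 48.3 and 52.5 TPM in the vehicle libraries. Every rMANF value was above every vehicle value, as for 18.9% of tested genes. The log2 difference was 0.27 ± 0.09 (SE, n = 3 each), a ratio of 1.21-fold with an interval of 1.05 to 1.39 (limma, adjusted p = 0.156). It ran from 0.21 to 0.34 over the fits leaving out 1 library. With library weights Hyou1 was called (adjusted p = 0.0454), in a fit that called 737 of all tested genes, and over the 18 alternatives its adjusted p ran from 0.0454 to 0.375. Against Hspa5, Hyou1 stood at 14.4, 12.8 and 13.6% in the rMANF libraries and at 10.0, 11.7 and 11.8% in the vehicle libraries, also without overlap.

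The J-domain partners Dnajb11 and Dnajc3 showed no difference beyond the spread. Dnajb11 (ERdj3), which hands unfolded proteins to Hspa5, measured 62.2, 64.9 and 56.4 TPM in the rMANF libraries, against 68.6, 60.0 and 58.6 TPM in the vehicle libraries (log2 difference −0.03, 95% interval −0.25 to 0.20). Dnajc3 (p58IPK), a luminal co-chaperone first known as an inhibitor of the kinase PKR, measured 23.6, 30.7 and 27.1 TPM, against 33.3, 25.9 and 25.2 TPM in the vehicle libraries (−0.05, −0.37 to 0.27). In both genes the groups overlapped and vehicle replicate 1 was highest. Sdf2l1, which forms a complex with Dnajb11, measured 33.1, 29.7 and 35.0 TPM in the rMANF libraries, against 33.0, 31.7 and 39.2 TPM in the vehicle libraries (−0.08, −0.34 to 0.17). Its values overlapped too, and here vehicle replicate 3 was highest.

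Among the other chaperones, Hsp90b1, which folds integrins and Toll-like receptors, measured 573, 648 and 611 TPM in the rMANF libraries, against 929, 533 and 595 TPM in the vehicle libraries. The log2 difference was −0.12 with a 95% interval of −0.56 to 0.32, the widest of the 10, and its sign turned to 0.12 without vehicle replicate 1. Hsp90b1 too overlaps a gene on the opposite strand, since 10.3% of its exonic bases lie in 1810014B01Rik. That gene measured 53.3, 55.2 and 53.6 TPM in the rMANF libraries and 83.5, 48.5 and 53.1 TPM in the vehicle libraries. It was likewise highest in vehicle replicate 1. How unstranded reads were divided between these genes was not tested. Calr measured 391, 367 and 383 TPM in the rMANF libraries, against 465, 359 and 382 TPM in the vehicle libraries (−0.07, 95% interval −0.32 to 0.17). Canx measured 236, 283 and 285 TPM in the rMANF libraries, against 361, 220 and 248 TPM in the vehicle libraries (−0.02, −0.43 to 0.39). Both lectin chaperones overlapped between groups, with the highest and the lowest value in the vehicle group. Creld2, a stress-inducible luminal protein with EGF-like repeats, measured 60.9, 58.9 and 55.9 TPM in the rMANF libraries, against 58.4, 58.7 and 58.1 TPM in the vehicle libraries (0.0036, −0.17 to 0.18). Its range over all 6 libraries, 0.12 on the log2 scale, was the narrowest of the 10. Adjusted p for the 8 genes other than Manf and Hyou1 lay between 0.719 and 0.984 (limma).

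**Figure D3:**
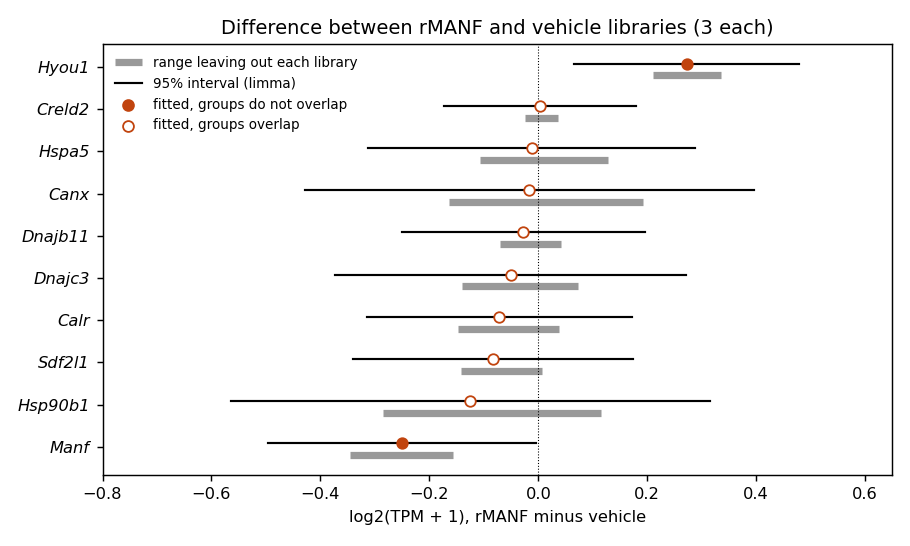
Difference in log2(TPM + 1), rMANF minus vehicle, for each gene (points), with limma's 95% interval (black) and the range of the value when each library is left out (grey). Hyou1 at 0.27 and Manf at −0.25 are the filled points, whose groups do not overlap, and the intervals of the other 8 genes span 0.

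The pattern that most of the genes shared lay in a single library. Vehicle replicate 1 was the highest library for 7 of the 10 genes (Manf, Hspa5, Hsp90b1, Calr, Canx, Dnajb11 and Dnajc3), and it was the highest for 33.0% of all tested genes. The same library was highest for 15 of 30 other tested folding genes of the endoplasmic reticulum. It was highest for 7 of 24 tested sensors and other targets of the unfolded protein response. Hsp90b1 stood at 929 TPM there, against 533 to 648 TPM in the other 5 libraries, and Canx at 361 TPM, against 220 to 285 TPM. Hyou1, Creld2 and Sdf2l1 lay inside the range of the other libraries. Relative to each gene's mean, the median of the 10 genes was 0.26 on the log2 scale in vehicle replicate 1 and between −0.10 and 0.05 in the other 5 libraries, and for all tested genes it was 0.06 in vehicle replicate 1. Within the vehicle group the SD of log2 values had a median of 0.19 over the 10 genes, against 0.09 within the rMANF group. It was smaller in the rMANF group for 9 of the 10 genes and for 70.2% of all tested genes. Without vehicle replicate 1, 8 of the 10 differences were above 0, where 2 were with it. The median of the 10 was then 0.06, and that of all tested genes was 0.08, which is no lower. In that fit 0 of the 10 were called, against 4 of all tested genes.

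**Figure D4:**
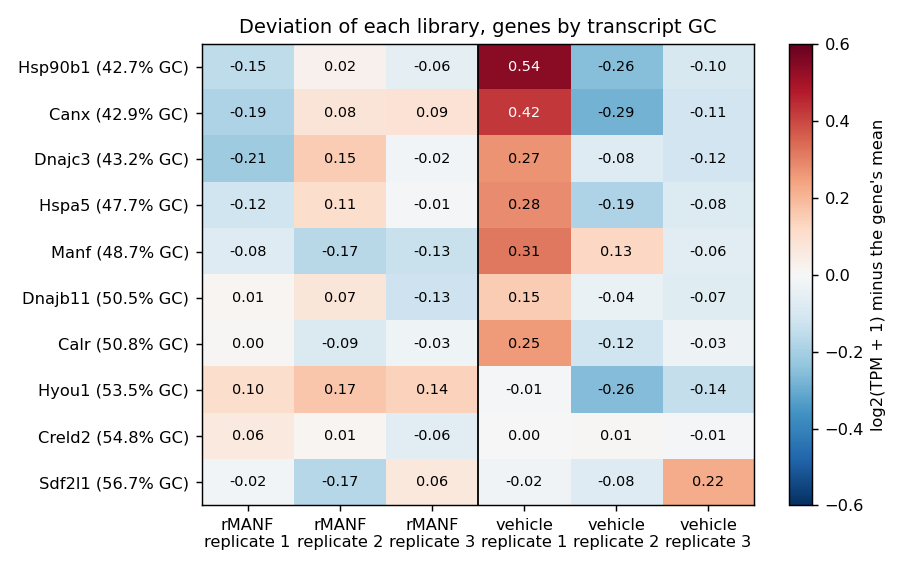
Deviation of log2(TPM + 1) from each gene's mean over 6 libraries, with genes ordered from the lowest transcript GC (top) to the highest and rMANF libraries left of vehicle libraries. Vehicle replicate 1 reaches 0.54 for Hsp90b1 and stays near 0 for Hyou1, Creld2 and Sdf2l1.

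GC content moved with this pattern. The 7 genes that were highest in vehicle replicate 1 have transcripts of 42.7 to 50.8% GC, and Hyou1, Creld2 and Sdf2l1 have 53.5, 54.8 and 56.7% GC. Over all tested genes, the median deviation of vehicle replicate 1 was 0.21, 0.10, −0.0074 and −0.12 from the lowest to the highest of 4 equal bins of GC. Between the outer bins it went from −0.11 to −0.13 in vehicle replicate 2 and from −0.021 to −0.022 in vehicle replicate 3. In rMANF replicates 1, 2 and 3 it rose from −0.06 to 0.11, 0.06 to 0.11 and −0.08 to 0.07. The difference between groups followed GC as well, at −0.05 in the lowest and 0.19 in the highest bin. With each library's GC trend removed, an alternative chosen after seeing the data, vehicle replicate 1 was highest for 7 of the 10 genes, against 29.1% of tested genes. Of these, 6 were the same genes as before; Creld2 joined them, and Dnajc3 was then highest in rMANF replicate 2. The deviation of Hsp90b1 in it was then 0.37 and that of Calr 0.25. In the same fit the Manf difference was −0.20, with overlapping groups, and that of Hyou1 was 0.24.

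**Figure D5:**
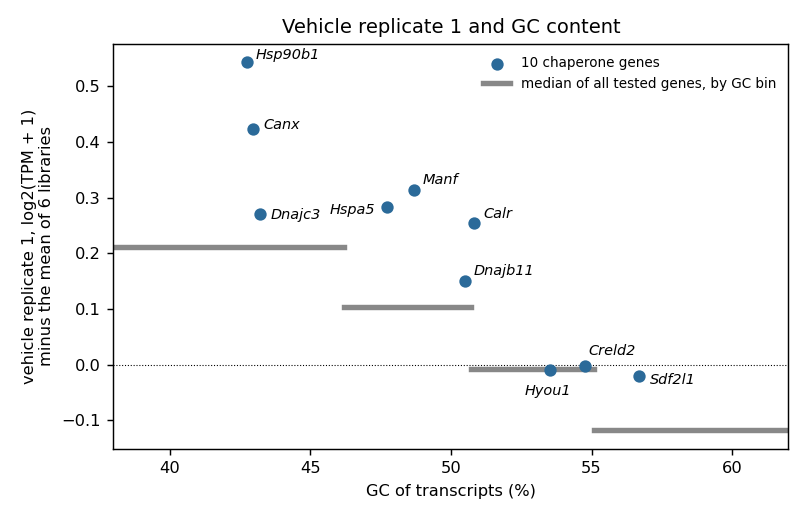
Deviation of vehicle replicate 1 from the mean of the 6 libraries, in log2(TPM + 1), against transcript GC for the 10 chaperone genes (points) and as medians of all tested genes in 4 bins of GC (grey bars, of which the outer ones run on past the axis). Hyou1, Creld2 and Sdf2l1, which have the highest GC of the 10, lie near 0, and each of the 10 points except Hyou1 lies above the bar of its bin.

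Among markers of antibody-secreting and B cells, Igkc, the kappa light chain, was highest in the same library, but the list without it was not. All 12 markers had rows and summed to 207, 237 and 253 TPM in rMANF replicates 1, 2 and 3, and to 384, 202 and 206 TPM in vehicle replicates 1, 2 and 3. Without Igkc the other 11 summed to 197, 231 and 230 TPM in the rMANF libraries and to 214, 147 and 188 TPM in the vehicle libraries. Igkc measured 10.2, 5.79 and 23.7 TPM in the rMANF libraries, against 170, 55.1 and 17.6 TPM in the vehicle libraries. Jchain, also on the list, measured 0.497, 1.635 and 1.945 TPM in the rMANF libraries, against 6.70, 2.78 and 1.25 TPM in the vehicle libraries. Mzb1, a plasma cell gene, stayed at or under 0.862 TPM. Of the 12 markers 4 were highest in vehicle replicate 1 and 6 were under 1 TPM in every library. Xbp1, the response factor that plasma cells need, measured 71.4, 81.2 and 72.7 TPM in the rMANF libraries, against 97.1, 66.7 and 69.2 TPM in the vehicle libraries. Macrophage and monocyte markers, all 12 with rows, summed to 1700 to 2346 TPM in rMANF libraries and 2993 to 3340 TPM in vehicle libraries. The part of these cells in the chaperone values was not tested.

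Other genes of folding and of the unfolded protein response gave the same absence of calls. Of 30 tested folding genes outside the 10 (disulfide isomerases, oxidases, glucosidases and others), 15 lay higher and 15 lower with rMANF, 0 were called, and the median log2 difference was −0.0013. Groups did not overlap for 3 genes that lay higher and 2 that lay lower, 16.7% of the list, below the 28% of all tested genes. Mogs, the first glucosidase of N-glycan trimming, measured 61.6, 62.6 and 58.6 TPM in the rMANF libraries, against 44.1, 47.1 and 49.8 TPM in the vehicle libraries (log2 difference 0.37; limma, adjusted p = 0.0986). Prkcsh, a subunit of the second glucosidase, measured 170, 175 and 180 TPM in the rMANF libraries, against 159, 121 and 150 TPM in the vehicle libraries (0.30; limma, adjusted p = 0.192). Both enzymes prepare the glycan that Calr and Canx recognise, and neither passed the test. On the lower side, Ero1lb, an oxidase of disulfide formation, differed by −0.33 and Erp29, a disulfide isomerase relative, by −0.20 (limma, adjusted p = 0.304 and 0.314).

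Among 24 tested sensors and other targets of the unfolded protein response, 19 lay higher and 5 lower with rMANF, with a median log2 difference of 0.15. Again 0 passed the test. Over all tested genes 7366 lay higher and 5499 lower. Groups did not overlap for 7 of the 24 (29.2%), all higher with rMANF, where all tested genes gave 28% in either direction and 18.9% higher. Trib3, a pseudokinase induced by ATF4 and CHOP, measured 91.2, 81.7 and 78.0 TPM in the rMANF libraries, against 68.8, 71.6 and 58.1 TPM in the vehicle libraries (limma, adjusted p = 0.150). Atf6b, a relative of the sensor Atf6, measured 62.1, 63.1 and 65.7 TPM in the rMANF libraries, against 49.8, 40.3 and 56.6 TPM in the vehicle libraries (limma, adjusted p = 0.152). Sec61b, of the translocation channel, differed by −0.25 and Derl2, of the degradation machinery, by −0.12 (limma, adjusted p = 0.275 and 0.615).

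Profiles over the 6 libraries were compared by the root mean square difference of centred log2(TPM + 1) among 7551 other genes that averaged 10 TPM or more. The 5 genes nearest to Manf were Cnih1, Selenow, Ripk2, Atpif1 and Birc5, at 0.0286 to 0.0359 log2 units, where the median gene was at 0.229. Cnih1, for example, measured 176, 172 and 177 TPM in the rMANF libraries, against 239, 205 and 187 TPM in the vehicle libraries. Of the 10 chaperone genes Calr was nearest to Manf, at rank 602, and Hspa5 had rank 2087. The 5 genes nearest to Hspa5 were Shoc2, Kpna2, Gnl3, Sec63 and Riok1, at 0.0171 to 0.0258. Sec63 encodes a J-domain protein that recruits Hspa5 to the translocation channel, and it measured 29.4, 33.9 and 31.8 TPM in the rMANF libraries, against 40.4, 27.3 and 29.9 TPM in the vehicle libraries. Dnajc3 at rank 214 and Canx at rank 634 were the nearest chaperone genes to Hspa5, and Manf had rank 3829. These distances describe 6 libraries and share their scaling and GC trends.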

How the data were processed

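The submitters' processing notes list HTSeq 0.11.0, Salmon 0.14.1, fastp, cutadapt and mm10; their order, the annotation and any filter are not given there. QIAzol extraction and the Nextera XT kit are stated per the labels' protocols. The authors deposited log2 TPM per gene and library, where −9 stands for 0 TPM. Back on the linear scale, each library summed to its full total within 19.5 TPM.

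Differences, rMANF minus vehicle, were computed on log2(TPM + 1), a scale that shrinks changes of low genes. Genes averaging 1 TPM or more went into limma 3.58.1 (R 4.3.3; variance trend, two-sided, no covariates). The procedure was tested on simulated data. The planted changes were larger than any difference fitted for the chaperone genes, so smaller ones were not covered. The replicate number did not pair the libraries (correlation of same-numbered deviations −0.0694, 0.0291 and 0.0495). Transcript GC was found for 99.7% of tested genes in GENCODE M21.

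The 10 genes and the lists were chosen with earlier results of these data known. Named genes are the 10, Cdnf, for each list the 2 of smallest p in each direction, and the 5 nearest profiles. The context lists held 34 and 28 names, among them older and newer names of the same genes, and 32 and 26 names had rows. Of 7 melanocyte markers, 3 had rows. Fibroblast markers summed to 213 to 302 TPM in rMANF and 285 to 432 TPM in vehicle libraries, endothelial to 55.7 to 69.8 and 37.5 to 56.5, melanocyte to 7.44 to 10.2 and 7.96 to 12.6, red cell to 209 to 302 and 196 to 682, and dividing-cell markers to 916 to 964 and 937 to 1052.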

Additional observations from a re-analysis of the deposited data

How the results depend on the processing

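The Manf and Hyou1 differences kept their sign under all 18 alternatives, Manf between −0.35 and −0.06 and Hyou1 between 0.21 and 0.34. The Manf to Hspa5 ratio was run only under the 8 that add the replicate block or leave out libraries. It kept its sign in these, between −0.32 and −0.14. Depth is unknown, so the spread between mice is the only measure of precision. With library weights 737 genes were called, 1 of them among the 10, and signs turned for Hspa5 (0.050), Hsp90b1 (0.0013), Canx (0.073), Dnajb11 (0.036) and Dnajc3 (0.036). Without vehicle replicates 1 and 2 together 13 genes were called, 0 among the 10, and signs turned for Hspa5 (0.075), Hsp90b1 (0.036), Canx (0.11), Dnajb11 (0.057) and Dnajc3 (0.091). With the GC trend removed, groups did not overlap for 1 of the 10 genes, Hyou1, against 25.8% of all tested genes. In that fit signs turned for Hspa5 (0.046), Canx (0.091), Dnajc3 (0.054) and Creld2 (−0.053). Quantile normalization gave 0.028 for Hspa5, 0.019 for Canx and −0.055 for Creld2. Creld2 was −0.048 under median-of-ratios scaling and −0.015 after rescaling without mitochondrial and haemoglobin genes. The cause of these turns was not tested; each main value was within 1 SE of 0. The replicate block gave 3 calls over all genes and left all 10 genes uncalled (Manf adjusted p = 0.319, Hyou1 0.298); not every library was closest to its own number.

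Leaving out each library in turn gave 0 to 4 calls over all genes, 0 of the 10, and 2 to 3 of the 10 without overlap, where the share over all genes was 34.6 to 45% in those fits. The median of the 10 ran from −0.12 to 0.06. The differences ran from −0.35 to −0.16 for Manf, −0.11 to 0.13 for Hspa5, −0.285 to 0.12 for Hsp90b1, −0.15 to 0.038 for Calr, −0.16 to 0.19 for Canx, −0.14 to 0.0069 for Sdf2l1, −0.024 to 0.036 for Creld2, −0.071 to 0.041 for Dnajb11 and −0.14 to 0.072 for Dnajc3, and the ratio from −0.32 to −0.14. The signs of Hspa5, Hsp90b1, Calr, Canx, Dnajb11 and Dnajc3 all turned without vehicle replicate 1. At 3 against 3 the 95% intervals of 8 of the 10 genes span 0.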

Other observations

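The exact ERSE was found in promoter windows of 37 genes in all, of which 16 were tested. The 10 that are not among the chaperone genes described above were Adcy3, Alg12, Gm20560, Hnrnpa3, Pan2, Pdia6, Syvn1, Xlr3a, Xlr3c and Zfp57. Of these 10, 7 lay higher and 3 lower with rMANF, with a median log2 difference of 0.11, and 0 passed limma's test. The 6 chaperone genes with the element had a median of −0.03. Vehicle replicate 1 was the highest library for 5 of the 10 and for 5 of the 6, against 33.0% of all tested genes. These shares describe 1 library and were not tested.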
